A study of Mus musculus with 7 samples.

Results

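The 8 genes described here code for the chains of the cartilage collagens of types II, IX, X, XI and XXVII. They were listed by name, with no threshold on a value but with earlier results of these data known: Col2a1, Col9a1, Col9a2, Col9a3, Col10a1, Col11a1, Col11a2 and Col27a1, 8 of the 43346 genes in the deposited counts. All 8 were among the 20239 genes tested for a difference between alleles. They were measured in tibial growth plates, from both ends of the bone, of 7 male F1 mice from a cross of C57BL/6J (B6) and CAST/EiJ (CAST), killed at 21 d of age. The mice are untreated and form 1 group, so the comparisons are between the B6 and CAST alleles within a mouse, between genes, and between mice. Both alleles of an F1 mouse share the same cells and the same library. The strain of an allele cannot be told apart from the parent it came from, as the X-linked gene Bgn described below shows. The mice keep their label numbers 1, 2, 3, 4, 5, 7 and 8.

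Collagen is built from 3 chains wound into a triple helix, which requires each chain to repeat the triplet Gly-X-Y, glycine followed by any 2 residues. In cartilage, type II collagen makes the bulk of the fibril, type XI lies within it and sets its width, and type IX coats its surface. Type X is made by hypertrophic chondrocytes, the enlarged cells at the end of the growth plate next to the bone. Type XXVII forms thin fibrils of its own in cartilage. Col2a1 codes for the sole chain of type II, Col10a1 for that of type X and Col27a1 for that of type XXVII. Col9a1, Col9a2 and Col9a3 code for the 3 different chains of type IX. Col11a1 and Col11a2 code for chains of type XI, whose remaining chain is a product of Col2a1.

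The first 3 triplets of each gene's longest unbroken run of Gly-X-Y codons are shown because this repeat is the feature that all 8 genes share. Capitals mark the glycine codons, and the sequences are from GENCODE M21 transcripts on GRCm38 (mm10), the B6 reference.
Col2a1: GGGcccatgGGCcccatgGGAccccgt
Col11a1: GGCcctcctGGCccaatgGGTcttact
Col11a2: GGGccccctGGCcccatgGGTtacacg
Col27a1: GGAgcaaagGGCaacatgGGCttgcct
Col9a1: GGTcgctctGGAtatccaGGCctacca
Col9a2: GGTgtgaagGGTcctcagGGTttgcaa
Col9a3: GGCcctccgGGAcccccaGGAatgccg
Col10a1: GGAaaacaaGGCttgccaGGTttgagg

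The longest run was 339 triplets in Col2a1 and 338 in both Col11a1 and Col11a2, so the genes of the chains that share a fibril held runs of nearly equal length. It was 217 triplets in Col27a1, 113 in each of the 3 type IX genes and 61 in Col10a1. The type IX genes each held 6 runs of at least 5 triplets and Col10a1 held 9, against 3 in Col2a1 and 2 in each type XI gene. These counts describe the reference sequence and no CAST sequence was read.

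Col2a1 lies on chromosome 15 (97975602 to 98004695, minus strand) and its printed bases join exons 8 and 9 (97996675 to 97997320). Col11a1 is on chromosome 3 (114030540 to 114220718, plus strand), with the printed bases in exon 14 (114105402 to 114105428). Col11a2 is on chromosome 17 (34039437 to 34066685, plus strand), with the printed bases in exon 12 (34051274 to 34051300). The genes of the 2 chains of 1 collagen type thus lie on different chromosomes. Col9a1 is on chromosome 1 (24177610 to 24252684, plus strand; printed bases in exon 17, 24209080 to 24209106). Col9a2 is on chromosome 4 (121039385 to 121055322, plus strand), with its bases in exon 11 (121045020 to 121045046). Col9a3 is on chromosome 2 (180597790 to 180622189, plus strand), with its bases in exon 12 (180605239 to 180605265). Col10a1, the most compact of the 8 with 3 exons, is on chromosome 10 (34389981 to 34397085, plus strand), with its bases in exon 3 (34394928 to 34394954). Col27a1 is also on chromosome 4 (63214004 to 63334991, plus strand), and its printed bases join exons 6 and 7 (63244040 to 63245086). All printed bases are coding.

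The deposited values are estimated counts per gene and allele, and the totals ran from 14098019 counts in mouse 7 to 37849667 in mouse 5. These totals are larger than the average number of reads that the labels state, and whether 1 count stands for 1 read was not determined, so values that treat counts as reads are rough. The 8 genes held 6.19% (mouse 8) to 9.94% (mouse 4) of all counts. Levels are given as counts per 1e6 of a mouse's total, written CPM. The labels name the tissue as growth plate chondrocyte. All 15 chondrocyte markers outside the collagens and all 8 hypertrophic markers had at least 10 counts in every mouse, with summed levels of 12095 to 17270 CPM and 2301 to 2786 CPM. The same held for every marker in the lists of other cells. Osteoblast and osteocyte markers, led by the chains of type I collagen, summed to 73443 to 125537 CPM (9 genes), erythroid markers to 8381 to 20331 CPM (8 genes) and skeletal muscle markers to 3851 to 8366 CPM (8 genes). Osteoclast markers summed to 4173 to 6068 CPM, neutrophil granule markers to 1504 to 3242 CPM, B-lineage markers to 178 to 425 CPM and endothelial markers to 364 to 499 CPM. The tissue therefore held RNA of bone, marrow, muscle and vessel cells, and in whole tissue fewer chondrocytes and less RNA per chondrocyte cannot be told apart.

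Type II collagen RNA was by far the most abundant of the 8. Col2a1, the chain of the main cartilage fibril, had a lowest level of 38278 CPM in mouse 8, a median of 50491 CPM and a highest level of 71280 CPM in mouse 4. It ranked 3 among all genes by mean count and held 61.9% (mouse 8) to 72.4% (mouse 1) of the counts of the 8 genes. The share was 68.1% or less in mice 5, 7 and 8 and 71.5% or more in the others.

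The chains of the minor fibril collagens came next by count. Col11a2, a chain of the fibril core, ranged from 6287 CPM (mouse 8) through a median of 6972 CPM to 9634 CPM (mouse 4). Col11a1, its partner, ranged from 3684 CPM (mouse 1) through 4520 CPM to 5360 CPM (mouse 5). Mouse 8, lowest for Col2a1 and Col11a2, was the second highest for Col11a1. Col10a1, the marker of hypertrophic chondrocytes, ranged from 2416 CPM (mouse 1) through 3515 CPM to 3989 CPM (mouse 4).

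The 3 type IX genes had nearly equal counts. Col9a1 ranged from 1818 CPM (mouse 1) through a median of 2299 CPM to 2760 CPM (mouse 8), Col9a2 from 1736 CPM (mouse 1) through 2362 CPM to 3410 CPM (mouse 4), and Col9a3 from 1733 CPM (mouse 1) through 2264 CPM to 3083 CPM (mouse 4). Mouse 1 was lowest for all of them. Col27a1, the thin-fibril collagen, was the least abundant of the 8, from 575 CPM (mouse 8) through 647 CPM to 754 CPM (mouse 4), and still ranked 94 among all genes by mean count.

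Levels of different genes were compared per length, as CPM per kb of merged exons. On this scale Col2a1 stood at 5759 ± 1219 (SD, n = 7), Col11a2 at 1077 ± 181, Col10a1 at 1048 ± 192, Col9a2 at 807 ± 166, Col9a3 at 615 ± 107, Col9a1 at 460 ± 65.3, Col11a1 at 363 ± 44.8 and Col27a1 at 51.3 ± 5.26 (all SD, n = 7). Among 15623 protein-coding genes, Col2a1 ranked 4 by this level and Col27a1 ranked 474. In every mouse the level of Col2a1 per kb was above that of Col11a2, on average 5.30-fold (two-sided exact permutation of the signs of the log2 ratios of the mice, p = 0.0156, the smallest that 7 mice allow). The pairs tested were neighbours in the order of these same values, so neither the pairs nor their directions were set in advance. Their p-values therefore describe how steady the order was over the mice and are no independent support for it. Of the 7 neighbouring pairs in this order, 6 kept their order in all 7 mice, each with the same smallest p of that exact test. The exception was Col11a2 and Col10a1, whose levels per kb did not differ beyond the spread between mice (mean log2 ratio 0.05, range -0.30 to 0.30, Col11a2 higher in 4 of 7 mice, exact sign-flip permutation p = 0.609). With the length of the longest coding transcript in place of merged exons, Col9a1 and Col11a1 could no longer be ranked (mean log2 ratio 0.0080, exact sign-flip permutation p = 0.797), while Col11a2 exceeded Col10a1 1.17-fold (exact p = 0.0469). That length put Col2a1 8.45-fold above Col11a2, and Col10a1 above Col9a2 in only 6 of 7 mice (exact sign-flip permutation p = 0.0312).

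**Figure D1:**
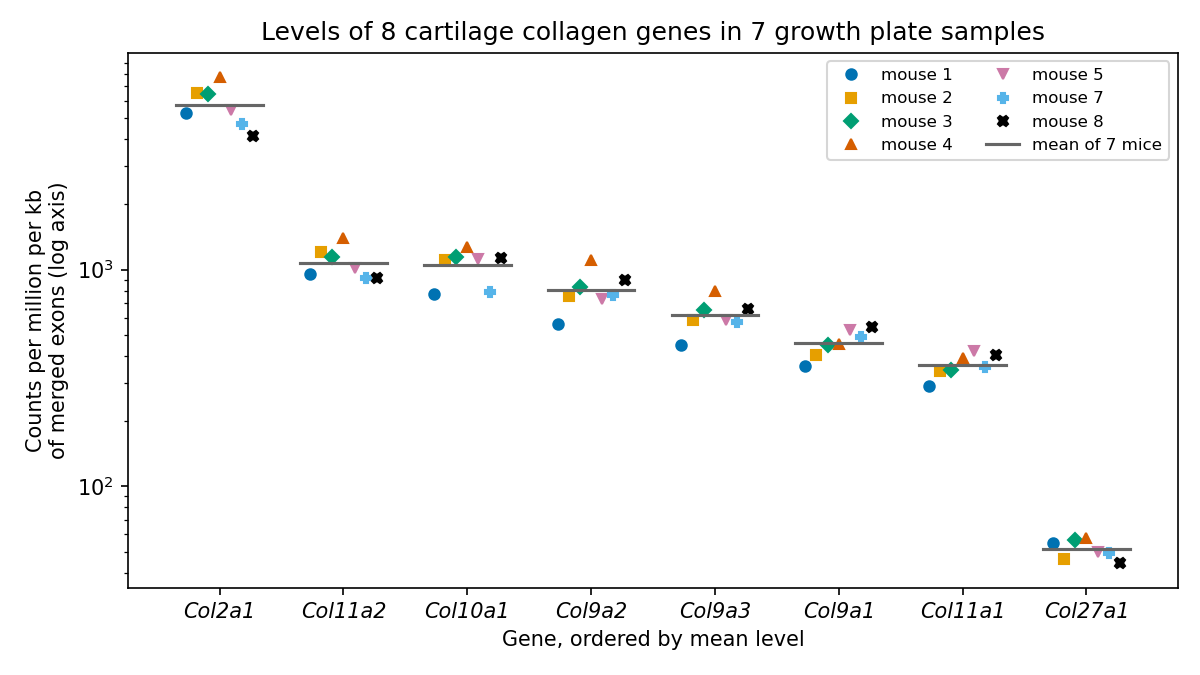
Level of each of the 8 genes in CPM per kb of merged exons (log axis), with 1 point for each of the 7 mice and a bar for their mean. The 7 points of Col2a1 lie between 4141 and 7712, above those of every other gene, and the 7 points of Col27a1 lie between 44.2 and 57.9, below those of every other gene.

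The chains of 1 collagen type were present in unequal RNA amounts per kb. Col9a3 stood at 0.766 ± 0.0313 (SD, n = 7) of the level of Col9a2 per kb, with a range of 0.726 to 0.801 over the mice. Col9a1 stood at 0.583 ± 0.0984 of Col9a2 (SD, n = 7), with a wider range of 0.412 in mouse 4 to 0.714 in mouse 5. The ratio of Col9a3 to Col9a2 was thus steadier over the mice than that of Col9a1 to Col9a2. With the longest coding transcript as length, the mean ratios were 0.916 for Col9a3 and 0.728 for Col9a1.

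Col11a2 was 3.00 ± 0.559 times as high as Col11a1 per kb (SD, n = 7), with 2.26 in mouse 8 as the lowest and 3.60 in mouse 4 as the highest value. With the longest coding transcript as length, this ratio was 2.05 ± 0.382 (SD, n = 7), from 1.55 to 2.46. Relative to Col11a1, Col2a1 was 18.3 to 19.8 times as high per kb in mice 1, 2, 3 and 4 but 13.0, 13.3 and 10.3 times as high in mice 5, 7 and 8. Relative to Col11a2, it was 5.55, 5.41, 5.70 and 5.50 times as high in mice 1, 2, 3 and 4 and 5.39, 5.14 and 4.53 times as high in mice 5, 7 and 8. With the longest coding transcript as length, the latter ratio was 7.21 to 9.09 over the 7 mice. These ratios within a mouse do not depend on the library size, but they are not corrected for the GC content treated below. The mice with the 3 lowest Col2a1 to Col11a1 ratios also had the highest summed erythroid markers, 20331 CPM in mouse 5, 19080 CPM in mouse 7 and 14686 CPM in mouse 8, against 8381 to 11103 CPM in the others. The same 3 mice had the highest B-lineage sums, 316 to 425 CPM against 178 to 297 CPM, and the lowest osteoblast and osteocyte sums, 73443 to 80104 CPM against 86363 to 125537 CPM. The part of marrow and bone cells in these ratios was not tested.

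The alleles of the 8 genes were close to balance. Each mouse's log2 ratio of CAST to B6 counts was averaged over the mice, and the median absolute average of 14526 autosomal genes, each with 10 or more counts per mouse, was 0.17. Only Col9a2 and Col27a1, of the 8, exceeded this. Among the 90 autosomal genes with a mean count at least that of Col27a1, the median was 0.12, and Col9a3 also exceeded it. A read that fits both alleles is divided between them, and the number of informative reads per gene is unknown. The median log2 ratio of the 14526 genes was 0 in every mouse, and how many of them lack informative reads was not tested.

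Col27a1 was the member with the largest ratio toward CAST. The CAST share of its counts was 53.3%, 54.8%, 54.3%, 54.8%, 54.2%, 54.9% and 54.9% in mice 1, 2, 3, 4, 5, 7 and 8. Even the shallowest value, 54.9% in mouse 7, had a 95% Wilson interval of 53.9% to 55.9%, which covers counting error only and takes every count as an independent read. The gene averaged 9566 ± 2783 CAST and 8037 ± 2461 B6 counts (SD, n = 7), a mean log2 ratio of 0.26 ± 0.034 (SD), and CAST was the higher allele in 7 of 7 mice (exact sign-flip permutation p = 0.0156).

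Col9a2 leaned the other way, with the largest ratio toward B6. The CAST share of its counts was 46.2%, 45.2%, 44.3%, 44.6%, 45.9%, 45.8% and 45.3% in the same order of mice. It averaged 29163 ± 7541 CAST and 35263 ± 9287 B6 counts (SD, n = 7), a mean log2 ratio of -0.27 ± 0.040 (SD) and B6 was the higher allele in 7 of 7 mice (exact sign-flip permutation p = 0.0156). The CAST share of Col9a3 ranged from 47.2% (mouse 1) through a median of 47.8% to 48.2% (mouse 3), a mean log2 ratio of -0.13 ± 0.023 (SD, n = 7). That of Col9a1 ranged from 50.01% (mouse 5) through 50.6% to 50.9% (mouse 7), a mean log2 ratio of 0.029 ± 0.018 (SD, n = 7). The ranges of the 3 type IX genes did not overlap.

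The remaining genes lay within a narrow band. The CAST share of Col2a1 ranged from 48.5% (mouse 2) through 48.9% to 49.2% (mouse 8), a mean log2 ratio of -0.064 ± 0.015 (SD, n = 7). That of Col11a2 ranged from 48.9% (mouse 1) through 49.1% to 49.9% (mouse 3), a mean log2 ratio of -0.045 ± 0.022 (SD, n = 7). Col2a1 and Col11a2 had more B6 counts in all 7 mice. The CAST share of Col10a1 ranged from 50.2% (mouse 5) through 50.8% to 51.8% (mouse 1), a mean log2 ratio of 0.044 ± 0.032 (SD, n = 7) with more CAST counts in all 7 mice. That of Col11a1 ranged from 49.6% (mouse 1) through 50.4% to 50.6% (mouse 2), a mean log2 ratio of 0.017 ± 0.019 (SD, n = 7), and CAST was the higher allele in only 6 of 7 mice (exact sign-flip permutation p = 0.0625).

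The other 7 genes each had 1 direction in all 7 mice, with p = 0.0156 in the exact sign-flip permutation test. Of 15111 genes with 10 or more counts per mouse, 28.3% had 1 direction in all 7, but the share was 74.4% among the 90 autosomal genes at least as abundant as Col27a1. The count of 7 of 8 is to be read against the latter. Summed over autosomal genes, CAST counts exceeded B6 counts by a mean log2 ratio of 0.030, and relative to that sum the mean ratios of Col9a1 (-0.00076), Col10a1 (0.014) and Col11a1 (-0.013) no longer kept 1 direction in all mice, with exact sign-flip permutation p-values of 0.906, 0.344 and 0.203. The other 5 kept theirs in all 7 mice.

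**Figure D2:**
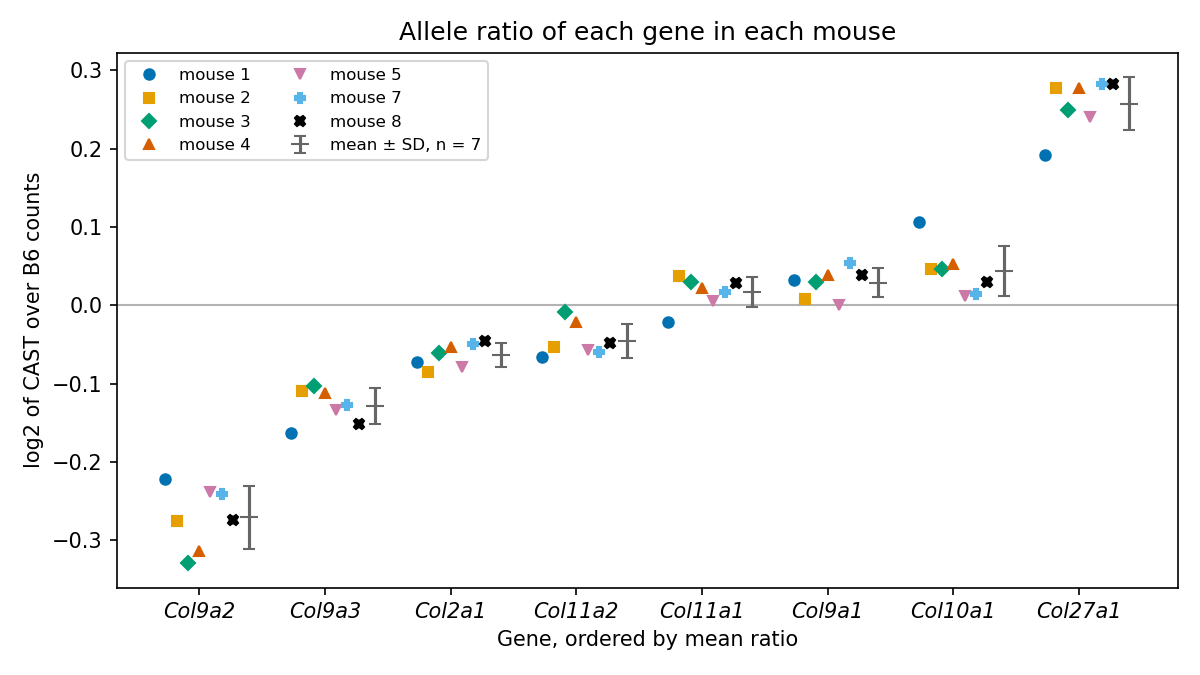
log2 ratio of CAST to B6 counts (vertical axis) for each gene, with 1 point for each of the 7 mice and the mean ± SD beside them. Points of Col9a2 lie between -0.33 and -0.22 and those of Col27a1 between 0.19 and 0.28, while the means of the other 6 genes lie between -0.13 and 0.044.

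In edgeR's likelihood-ratio test of the 7 CAST against the 7 B6 columns, 34.5% of 20239 genes were called at an FDR under 0.20, and of the 8 genes only Col27a1 was (log2 fold change 0.27, FDR 0.0506). Col9a2 had a log2 fold change of -0.26 (FDR 0.342 from edgeR), and the other 6 had FDR values of 0.753 to 0.997. With the mouse as a replicate block, which takes the difference between alleles within each mouse, all 8 were called, against 45.3% of all genes in the likelihood-ratio test and 40.3% in the quasi-likelihood test. These shares cover genes of every abundance. The share called among genes as abundant as the 8 was not determined, so the count of 8 cannot be read as a trait of these genes. The edgeR quasi-likelihood FDR with the block was 5.68e-06 for Col27a1, 2.15e-05 for Col9a2, 5.59e-05 for Col9a3, 0.00107 for Col2a1, 0.00351 for Col9a1, 0.00957 for Col10a1, 0.0122 for Col11a1 and 0.0337 for Col11a2. For small ratios these values depend on how the allele columns are scaled. That fit gave Col11a1 a log2 fold change of 0.033, against its mean log2 ratio of 0.017. In edgeR's likelihood-ratio test with the block, the FDR of Col11a1 was 0.000528 with TMM factors and 0.121 with 1 library size per mouse. At an FDR under 0.05 without the block, 0 of the 8 were called by edgeR's likelihood-ratio test, against 4779 of the 20239 genes. Of the 8, only Col27a1 had an unadjusted P-value of that edgeR test under 0.05. DESeq2 called Col27a1 alone of the 8, as edgeR did, at an FDR under 0.20, and 6608 genes in all. Totals of Col9a3 were not whole numbers in 7 mice and those of Col27a1 in 5, so some of their reads were divided with other genes. Exons of Col9a3 overlap those of Tcfl5 and exons of Col10a1 overlap those of Nt5dc1, both on the opposite strand and with means of 113 and 176 counts.

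Chains of the same collagen differed from each other in allele ratio. The log2 ratio of Col9a1 exceeded that of Col9a2 by 0.30 ± 0.046 and that of Col9a3 by 0.16 ± 0.031, and Col9a2 lay below Col9a3 by a mean difference of -0.14 ± 0.059 (SD, n = 7). Within the fibril core, Col11a1 exceeded Col11a2 by 0.062 ± 0.020 (SD, n = 7), and Col2a1 lay below Col11a1 by a mean difference of -0.081 ± 0.022 (SD, n = 7). Each of these 5 of the 6 pairs compared had 1 direction in all 7 mice (exact sign-flip permutation test, p = 0.0156). Col2a1 and Col11a2 did not differ beyond the spread between mice (mean difference -0.019, range -0.053 to 0.010, exact sign-flip permutation p = 0.0938). A library-wide shift between the alleles cancels in such differences.

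The allele ratios varied little from mouse to mouse. The SD of the log2 ratio over the 7 mice ran from 0.015 for Col2a1 to 0.040 for Col9a2, against a median of 0.25 over autosomal genes and of 0.035 over the 90 abundant ones. These SDs were 1.47 times (Col27a1) to 5.87 times (Col2a1) what counting error alone would give if every count were an independent read that told the alleles apart. Mouse 1 had the lowest ratio for Col9a3, Col11a1, Col11a2 and Col27a1 and the highest for Col9a2 and Col10a1.

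Levels varied between mice by more than the allele ratios did. The SD of log2 CPM was 0.31 for Col2a1, 0.30 for Col9a2, 0.28 for Col10a1, 0.25 for Col9a3, 0.23 for Col11a2, 0.21 for Col9a1, 0.18 for Col11a1 and 0.15 for Col27a1, against a median of 0.22 over 15111 genes. With TMM library sizes, which are scaled to the typical gene, it ran from 0.18 for Col27a1 to 0.39 for Col9a2, against a median of 0.20. On the latter scale 7 of the 8 genes varied more than the median gene, and Col27a1 did not.

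The genes did not all vary together. Col2a1 and Col11a2 were ranked alike in the 7 mice by CPM (Pearson r = 0.953, exact permutation p = 0.000198, the smallest that 7 mice allow, Benjamini-Hochberg adjusted 0.00496 over 25 relations; Spearman rho = 1, exact permutation p = 0.000397). Without the 2 mice farthest from the median of Col2a1, r was 0.970, and with TMM library sizes it was 0.959 (adjusted 0.0446). With totals that leave out the abundant noncoding RNAs Rn7s1, Rn7s2 and Rn7sk, it was 0.939, and the adjusted value, 0.0744, no longer passed. Under either of these 2 scalings rho was 0.857 and did not pass adjustment (adjusted 0.521 with TMM and 0.298 without those RNAs). Over the same mice, r of Col2a1 with Col9a1 was -0.418 (exact permutation p = 0.349; rho = -0.464, p = 0.302) and 0.035 with TMM library sizes. The r of Col2a1 with Col11a1 was -0.084 (exact permutation p = 0.868; rho = -0.179, p = 0.713), and 0.325 with TMM library sizes. Of the 7 relations of Col2a1 with another of the genes, that with Col11a2 alone passed the adjustment.

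The log2 ratio of the counts of 2 genes in a mouse is free of library size. Its SD over the mice was 0.059 for Col9a2 and Col9a3, 0.090 for Col9a1 and Col11a1 and 0.11 for Col2a1 and Col11a2, the smallest of the 28 pairs. It was largest, 0.44, for Col2a1 and Col9a1, whose count ratio differed 2.24-fold between the extreme mice. For Col9a1 with the other chains of type IX, it was 0.26 with Col9a2 and 0.23 with Col9a3. Pearson r of log2 CPM was 0.990 for Col9a2 and Col9a3 and 0.903 for Col9a1 and Col11a1, given as a description since these pairs were picked by their values.

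The transcripts of the pairs differ in base composition, and so do the libraries. Transcript GC content was 62.2% for Col2a1, 62.9% for Col11a2, 62.7% for Col9a2, 59.2% for Col9a3 and 59.4% for Col27a1, but 52.2% for Col9a1, 50.5% for Col10a1 and 48.0% for Col11a1. Over 9581 protein-coding genes each with 100 or more counts per mouse, the correlation of GC content with a mouse's deviation from the mean of the mice was 0.65 in mouse 4 and -0.41 in mouse 3, and between -0.25 and 0.18 in the other 5. After a line on GC content was removed in each mouse, the SD of the log2 ratio was 0.044 for Col9a2 and Col9a3, 0.13 for Col9a1 and Col11a1, 0.19 for Col9a1 with either Col9a2 or Col9a3, 0.11 for Col2a1 and Col11a2 and 0.42 for Col2a1 and Col9a1. The spread between Col2a1 and Col9a1 was therefore nearly as large after the correction. In mouse 4, log2 deviations before it were 0.45 for Col2a1, 0.40 for Col11a2 and 0.11 for Col11a1, and after it 0.35, 0.28 and 0.35. Those of mouse 3 after it were 0.36, 0.26 and -0.13, so neither ratio to Col11a1 was still highest in mouse 4.

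**Figure D3:**
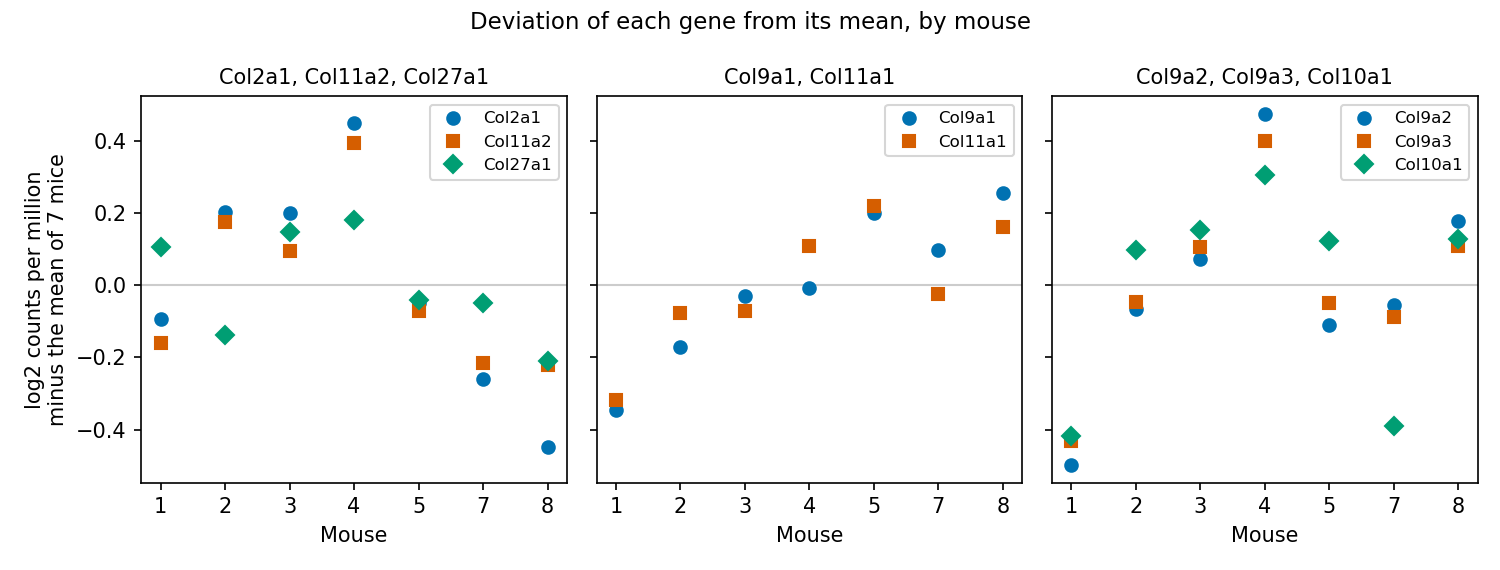
Deviation of log2 CPM of each gene from its own mean over the 7 mice (vertical axis), by mouse (horizontal axis), with genes grouped in 3 panels. Mouse 8 is lowest for Col2a1 and highest for Col9a1, and mouse 1 is lowest for Col9a1, Col9a2, Col9a3, Col10a1 and Col11a1.

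**Figure D4:**
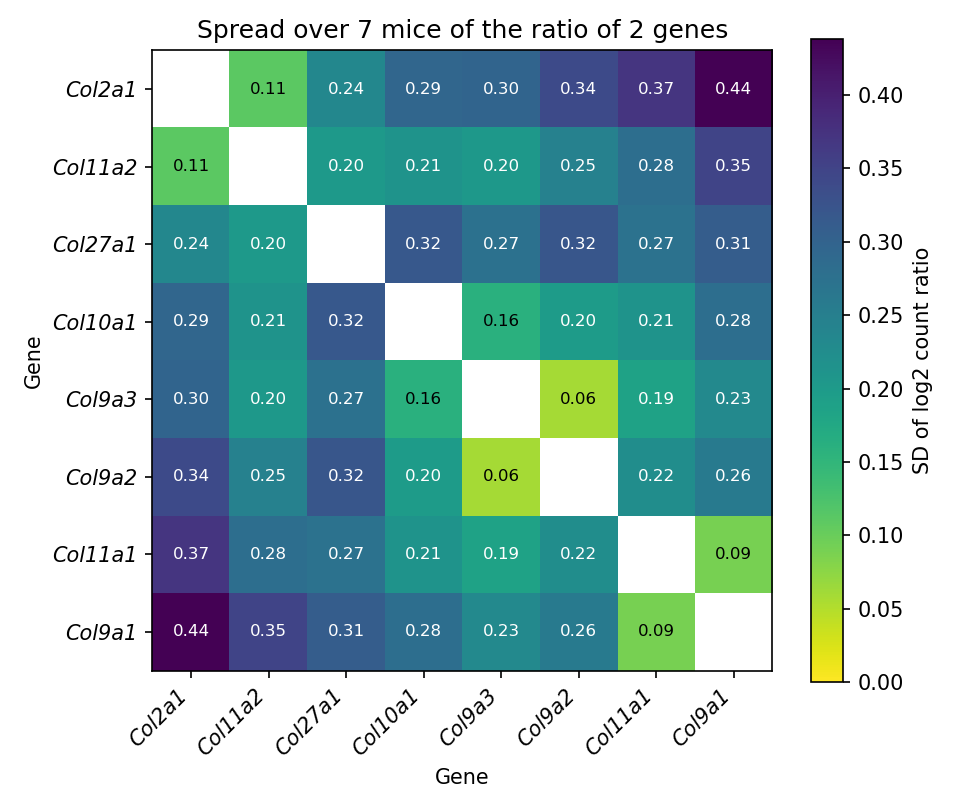
SD over the 7 mice of the log2 ratio of the counts of 2 genes, for all 28 pairs of the 8 genes (colour and printed value). The lowest cells are Col9a2 with Col9a3 (0.06), Col9a1 with Col11a1 (0.09) and Col2a1 with Col11a2 (0.11), and the highest is Col2a1 with Col9a1 (0.44).

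Levels of Col2a1 and Col10a1 were also set against the summed markers of 9 lists. The largest Pearson correlation was that of Col10a1 with the chondrocyte markers outside the collagens (r = 0.840, exact permutation p = 0.0171; rho = 0.893, p = 0.0123), which did not pass adjustment over the 25 relations (adjusted 0.213). With TMM library sizes r was 0.910 and its adjusted value 0.0496, while rho was 0.750 and its adjusted value 0.521. The hypertrophic list was Ihh, Mmp13, Panx3, Pth1r, Ibsp, Spp1, Alpl and Runx2. How much of its sum came from bone cells was not tested. With these markers, r of Col10a1 was 0.172 (exact permutation p = 0.684, rho = 0.036, p = 0.963). That r depended on the scaling, at 0.689 with TMM library sizes (exact permutation p = 0.105; rho = 0.607) and 0.374 without Rn7s1, Rn7s2 and Rn7sk in the totals. For Col2a1, r was 0.627 with chondrocyte markers, 0.503 with osteoblast and osteocyte markers, -0.597 with erythroid markers and -0.687 with B-lineage markers (exact permutation p = 0.126, 0.251, 0.157 and 0.0863), and none passed adjustment. With 7 mice such relations were poorly resolved.

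Among 15103 other genes, those whose log2 CPM followed Col2a1 most closely over the 7 mice were Erf, Fam129b, Slc12a4, Cspg4 and Zfp523 (Pearson r 0.956 to 0.980). Those nearest to Col10a1 were Ffar4, Mpv17l2, P4hb, Gdf5 and Gchfr (r 0.931 to 0.951). P4hb, a subunit of the enzyme that hydroxylates proline in collagen chains, was the one with a high level, 1165 CPM, and Gdf5, a growth factor of joints, had 6.55 CPM. They were picked as the closest of all genes, so these r values are descriptions.

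Genes that act on the cartilage collagens were tested for an allele difference in the same edgeR fit, against which all tested genes had 34.5% called and a median absolute log2 fold change of 0.22. Of 14 regulators of these genes, 3 were called with CAST higher and 1 with B6 higher (median absolute log2 fold change 0.11). Foxa2, a transcription factor of hypertrophic chondrocytes, had a log2 fold change of 0.96 (edgeR FDR 6.1e-05), with 125 ± 39.2 CAST and 64.7 ± 24.0 B6 counts (SD, n = 7). Its log2 ratio varied widely over the mice, from 0.46 to 2.69 (SD 0.77, n = 7). Sox5, a partner of Sox9 at the Col2a1 enhancer, had -0.20 (edgeR FDR 0.196), with a total that was not whole in 7 mice.

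Of 12 proteins bound to the fibrils, 2 were called with CAST higher and 3 with B6 higher (median absolute log2 fold change 0.23). The proteoglycan genes Dcn and Prelp had log2 fold changes of -0.50 (edgeR FDR 0.00034) and -0.33 (edgeR FDR 0.0106), and Matn1, a matrilin of cartilage, had 0.51 (edgeR FDR 0.0149). The third called gene on the B6 side, Bgn, is X-linked, and a male has only 1 X chromosome. Its log2 ratio was -4.96 to -4.22 over the 7 mice, so the X chromosome was that of B6 in all of them. The B6 allele was thus the maternal allele in every mouse, and strain and parent of origin are confounded in all allele ratios given here. Of 32 genes for folding and processing of collagen chains, 6 were called with CAST higher and 7 with B6 higher (median absolute log2 fold change 0.18). The lysyl hydroxylase gene Plod1 had -0.66 (edgeR FDR 6.37e-08), the lysyl oxidase genes Loxl2 and Loxl1, whose products cross-link collagen, had -0.45 (edgeR FDR 0.00113) and 0.42 (edgeR FDR 0.00407), and the prolyl hydroxylase gene P4ha3 had -0.56 (edgeR FDR 0.0035). Each of these 4 had 1 direction in all 7 mice. Totals were not whole numbers in 7 mice for Loxl2, 6 for Plod1, 4 for Prelp and 3 each for P4ha3 and Bgn, so reads of these genes were also divided with other genes.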

How the data were processed

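RNA from growth plates of 7 male F1 mice was sequenced after rRNA depletion. The authors aligned reads with Bowtie to a joint B6 (mm10) and CAST transcriptome and estimated counts per allele with EMASE. The deposited values are these estimated counts (expected counts), not normalized, and a read matching more than 1 allele or gene is divided among them. SAMtools is also listed in the submitters' notes. Tool versions are not given in the sources used here.

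Counts were rounded and fitted with edgeR 4.0.16 (R 4.3.3, TMM, glmFit and glmLRT) over 20239 genes with a count above 0, to 9 decimals, for at least 1 allele in every mouse, at an FDR under 0.20 adjusted over all of them. Alternatives were the quasi-likelihood test, DESeq2 1.42.0, the mouse as a replicate block, other library sizes, filters, lengths and pseudocounts, and each mouse left out in turn. For single genes, exact sign-flip tests were run on log2 ratios (pseudocount 0.5), and exact permutation tests on correlations. Names, lengths and sequences came from GENCODE M21, which held 98.0% of the identifiers. The main edgeR fit did not pair the alleles of a mouse, nor did DESeq2. The sign-flip tests and the fits with the mouse as a replicate block did, because both alleles come from 1 animal. Over genes with 10 or more counts per mouse, deviations of the B6 and CAST alleles correlated within a mouse with a mean of 0.059 (lowest -0.055). That value runs over all such genes and does not describe the 8. Their SD over the mice was 0.15 to 0.31 for log2 CPM but 0.015 to 0.040 for the log2 allele ratio, so their alleles moved largely together. No pair of mice agreed within sampling noise (lowest chi-square per degree of freedom 14.4 over 21 pairs).

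Members and gene lists were chosen with earlier results of these data known. Named genes were the 8 members, up to 4 genes of each list with an FDR under 0.20 and 1 direction in 7 mice, and the 5 genes most like Col2a1 and Col10a1. Such genes of the cell type marker lists are not described.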

Additional observations from a re-analysis of the deposited data

How the results depend on the processing

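With edgeR's quasi-likelihood test, DESeq2, other filters on low counts, autosomal genes alone or any mouse left out, Col27a1 remained the only 1 of the 8 genes called. These fits did not block on the mouse, and they called 5602 to 7609 genes in all. With 1 library size per mouse, 2 of the 8 and 6481 of all genes were called, the second of the 8 being Col9a2 (FDR 0.191). At an FDR under 0.05 in the main fit, 0 of the 8 and 4779 of all genes were called. The FDR of Col27a1 was near that threshold, at 0.0321 with DESeq2, 0.0492 with 1 library size per mouse, 0.0437 with at least 10 counts per mouse, 0.0763 with the quasi-likelihood test and 0.0191 to 0.117 with 1 mouse left out (lowest without mouse 4). With the mouse as a replicate block, 8 were called in the likelihood-ratio test, 8 in the quasi-likelihood test and 8 with 1 library size per mouse, the last chosen after seeing the data. The genes called in all were 9171, 8157 and 9180 in the same order. Centring on the autosomal sum, also chosen after seeing the data, moved the mean log2 ratio to -0.00076 for Col9a1, -0.013 for Col11a1 and 0.014 for Col10a1. With 1 mouse left out, that of Col11a1 was 0.014 to 0.023, and without mouse 1 it had 1 direction in all 6 (exact sign-flip p = 0.0312). The longest coding transcript as length gave a mean log2 ratio of 0.23 for Col11a2 over Col10a1 and 0.0080 for Col9a1 over Col11a1. Differences between chains were run again only with other pseudocounts and with each mouse left out. Where all 7 mice shared 1 direction, leaving 1 out could not change it. For Col2a1 and Col11a2, the mean difference was -0.023 to -0.013 with 1 mouse left out. No alternative moved a spread of levels beyond 1.5 times.

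Relations across mice moved most. With TMM library sizes, r was 0.035 for Col2a1 with Col9a1, 0.325 with Col11a1, 0.844 with Col27a1, 0.759 with chondrocyte, 0.619 with hypertrophic, 0.621 with endothelial and 0.153 with osteoclast markers, and for Col10a1 0.689 with hypertrophic, -0.0085 with endothelial, 0.167 with osteoblast and osteocyte, 0.208 with osteoclast and 0.101 with neutrophil granule markers. Without Rn7s1, Rn7s2 and Rn7sk in the totals, r was 0.024 for Col2a1 with Col11a1 and 0.040 for Col10a1 with neutrophil granule markers. With each mouse left out, r of Col2a1 ran from -0.160 to 0.732 with Col9a2, -0.0075 to 0.761 with Col9a3, 0.298 to 0.850 with Col10a1, -0.346 to 0.240 with Col11a1, 0.441 to 0.897 with Col27a1, -0.887 to 0.174 with osteoclast and -0.228 to 0.717 with endothelial markers. That of Col10a1 ran from 0.770 to 0.890 with chondrocyte, -0.240 to 0.446 with hypertrophic, -0.479 to 0.327 with osteoblast and osteocyte, -0.504 to 0.120 with erythroid, -0.373 to 0.254 with neutrophil granule and -0.801 to 0.241 with skeletal muscle markers. The relation of Col2a1 with Col11a2 stayed between 0.929 and 0.984. The causes of these changes were not tested.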
